A study of Mus musculus with 6 samples.

Results

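The transcription factor genes *Msx1*, *Msx2*, *Prrx1*, *Prrx2*, *Alx1*, *Alx4*, *Twist1*, *Twist2* and *Tfap2a*, all active in facial mesenchyme, were followed in craniofacial tissue of embryos that lacked the splicing factor Rbfox2 in the *Pax3* lineage. The members are the 9 rows of the deposited gene table, out of 38553, that carry these names. RNA was sequenced from tissue microdissected at E12.5 from 3 control embryos (*Rbfox2* flox/flox, no Cre) and 3 mutant embryos (Pax3Cre/+ with *Rbfox2* flox/flox). For its embryos in general, the study also counts *Rbfox2* flox/+ embryos, with or without Cre, as controls. All 6 embryos carried the floxed alleles on a mixed background, and each was labelled an independent biological replicate. The Cre was knocked in at *Pax3*, so every mutant had also lost 1 *Pax3* allele, and the effects of Cre, of *Pax3* dosage and of *Rbfox2* loss cannot be told apart. Embryo sex was not balanced either. Y-linked genes were high in mutant replicates 1 and 2 and near 0 in mutant replicate 3 and all controls. The effect of sex is therefore mixed in part with that of genotype. By the account of the study, this Cre is active in the neural crest and in paraxial mesoderm and somite derivatives, and the dissected tissue held other cell types as well. In such bulk tissue, fewer cells of a type and less RNA per cell cannot be told apart.

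Most facial mesenchyme comes from cranial neural crest cells, which migrate from the dorsal neural tube into the facial prominences. Msx, Prrx and Alx proteins are homeodomain factors, Twist proteins are basic helix-loop-helix factors that bind DNA as dimers, and AP-2α, the product of *Tfap2a*, belongs to the AP-2 family. In mice and humans these genes are known for their roles in growth of the facial prominences, the skull vault and the palate, and each of the Msx, Prrx, Alx and Twist genes studied here has a close paralog among the members.

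None of the 9 genes rose or fell in the mutants beyond the spread between embryos. The group values overlapped for all 9, and the fitted differences lay between -0.16 for *Tfap2a* and 0.0022 for *Twist1* on the log2 scale. Values are FPKM, fragment numbers scaled to gene length and library size, and differences were fitted with limma on log2(FPKM + 1). With 10061 genes tested, the median difference of the members was -0.090, against 0.0057 for all genes. Without mutant replicate 2 the members' median was -0.0067.

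The targeted gene was lower in every mutant. *Rbfox2* had FPKM of 58.4, 65.0 and 61.3 in control replicates 1, 2 and 3 and of 38.1, 36.3 and 34.3 in mutant replicates 1, 2 and 3, so 58.8% of the control mean was left. Its difference of -0.75 (standard error 0.079, adjusted p = 0.138 from limma) was larger in size than that of any member. For *Pax3* the control mean was 10.6 ± 1.59 (SD, n = 3) and the mutant mean 8.19 ± 0.536 (SD, n = 3), without overlap between the groups. Of all genes tested, 2.37% were lower in mutants without overlap. Other group values below are given in the same way, as mean ± SD over 3 embryos.

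The libraries differed in ways the genotype did not set. On the first principal component of the 10061 genes, which held 54.7% of the variance, control replicate 1 and mutant replicate 1 lay at -19.1 and -17.0 and the other samples between 7.55 and 11.01. The sources give no batch for this split, and differences are therefore also given within each replicate number. Values summed over all genes ranged from 528123 to 590174 per sample. The number of reads behind a value is unknown, so no counting error is given.

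UGCAUG, the RNA word that Rbfox proteins bind, was looked for in the longest annotated mRNA of each member, as TGCATG on the sense strand (GENCODE M21, GRCm38). It was present in 5 of the 9 members, and in 55.7% of the 9771 tested genes with such an mRNA. In 3 of the paralog pairs only 1 gene held it. *Msx1* (1935 bases) had 1 copy and *Msx2* (2453 bases) none. The same held for *Prrx1* (6527 bases) against *Prrx2* (1441 bases) and for *Twist1* (1628 bases) against *Twist2* (2525 bases). *Alx1* had 5 copies and *Alx4* 1, and *Tfap2a* had none. The copies that set a gene apart from its paralog are shown with 12 bases on each side, and the word is in capitals. The copy of *Msx1* ends with the start codon (chr5:37824331-37824336, minus strand), and those of *Prrx1* (chr1:163255134-163255139, minus strand) and *Twist1* (chr12:33959470-33959475, plus strand) lie after the stop codon.
*Msx1*: ggggtccggctcTGCATGgccccggctgct
*Prrx1*: aagtcactgggcTGCATGaccagcctatcc
*Twist1*: ttttatttttcaTGCATGcattctcaagag
A match of letters is a description and not a binding site, and introns were not searched. Over the 9771 genes the median mRNA length was 3179 bases. Splicing was not analysed here, since the deposited values are for whole genes. *Msx1*, *Prrx1* and *Twist1*, with the word, differed from controls by -0.040, -0.090 and 0.0022 on the log2 scale, and *Msx2*, *Prrx2* and *Twist2*, without it, by -0.066, -0.020 and -0.13. *Alx1* and *Alx4*, both with the word, differed by -0.10 and -0.11, and *Tfap2a*, without it, by -0.16.

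The 9 genes covered a wide range of levels, and the order was similar in every embryo. Averaged over the 6 samples and corrected for gene length as FPKM, *Prrx1* was the most abundant at 88.8 ± 9.32 (SD, n = 6), above 90.6% of all genes tested. *Twist1* followed at 77.7 ± 7.65 and *Msx1* at 71.6 ± 11.3. *Prrx1* exceeded *Twist1* in 6 of 6 samples and *Twist1* exceeded *Msx1* in 5 of 6, the exception being control replicate 1, although the ranges of these neighbours overlapped. *Prrx2* at 48.7 ± 2.87 and *Twist2* at 41.0 ± 5.98 came next, with *Prrx2* higher in 6 of 6 samples. *Alx4* at 33.5 ± 3.79 and *Alx1* at 33.0 ± 4.001 did not differ beyond their spread, with *Alx4* higher in 4 of 6 samples. *Msx2* at 14.8 ± 2.64 and *Tfap2a* at 5.96 ± 0.827 were lowest, and their ranges met no neighbour. *Tfap2a* stood above 2.99% of the genes tested, which were only those with an FPKM over 5 in all controls or all mutants. Genes that failed this filter are in neither this share nor that of *Prrx1*.

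**Figure D1:**
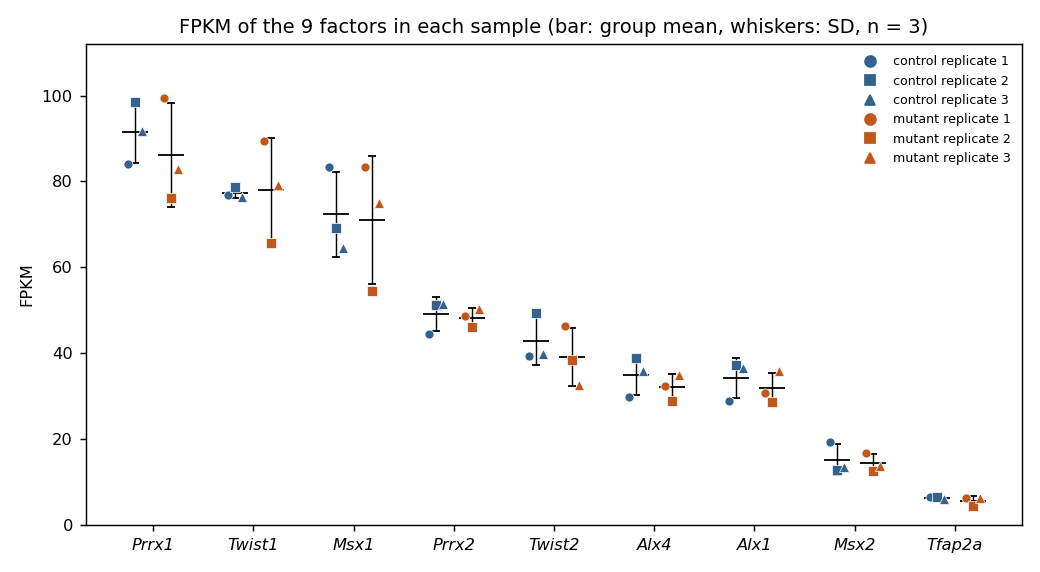
FPKM (vertical axis) of the 9 genes in each sample, ordered by their mean over the 6 samples. Blue points are controls and orange points are mutants, the shape gives the replicate number, and the black bar and whiskers are the mean ± SD of each group (n = 3). Mutant and control points overlap for every gene, and mutant replicate 2 (orange squares) is the lowest point for 7 of the 9.

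*Msx1* and *Msx2* encode homeodomain repressors that act downstream of BMP signals in the facial primordia, in the palate and in tooth buds. *Msx1* (ENSMUSG00000048450, GRCm38 chromosome 5 at 37820485 to 37824583, minus strand) was at 83.4, 69.2 and 64.4 in control replicates 1, 2 and 3 and at 83.4, 54.6 and 74.9 in mutant replicates 1, 2 and 3. The mutants held both the highest and the lowest value. The log2 fold change was -0.040 (standard error 0.17, 95% interval -0.44 to 0.36). *Msx2* (ENSMUSG00000021469, chromosome 13 at 53466884 to 53473074, minus strand) is known for its part in skull vault growth. Its controls had 19.3, 12.9 and 13.5 and its mutants 16.6, 12.6 and 13.8, in the same order of replicates as for all genes below. Both first replicates stood above the other 4 samples, whatever their genotype. Its log2 fold change was -0.066 (standard error 0.17, 95% interval -0.46 to 0.33).

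*Prrx1* and *Prrx2* encode paired-related homeodomain factors of the mesenchyme of face and limbs. *Prrx1* (ENSMUSG00000026586, chromosome 1 at 163245119 to 163313710, minus strand) reached 84.1, 98.4 and 91.7 FPKM in the control embryos and 99.5, 76.1 and 82.8 in the mutant embryos. The mutants again held both extremes. Its log2 fold change was -0.090 (standard error 0.12, 95% interval -0.37 to 0.19). It was 0.24 between the first replicates and -0.26 in replicates 2 and 3, where the unadjusted p was 0.0108 and the adjusted p 0.398 from limma. In those 4 samples 5.56% of all genes tested were lower in mutants at an unadjusted p under 0.05, and *Prrx1* and *Twist2* were the 2 members among them. *Prrx2* (ENSMUSG00000039476, chromosome 2 at 30834972 to 30881251, plus strand) reached 44.5, 51.2 and 51.4 FPKM in the control embryos and 48.6, 46.0 and 50.2 in the mutant embryos. It was the steadiest member, with an SD of 5.89% of its mean over the 6 samples, and its interval was the narrowest (log2 fold change -0.020, standard error 0.087, 95% interval -0.22 to 0.18).

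*Alx1* and *Alx4* encode aristaless-like homeodomain factors, which are known for their roles in frontonasal development. *Alx1* (ENSMUSG00000036602, chromosome 10 at 102998707 to 103030215, minus strand) reached 28.9, 37.3 and 36.4 FPKM in the control embryos and 30.7, 28.7 and 35.9 in the mutant embryos. *Alx4* (ENSMUSG00000040310, chromosome 2 at 93642384 to 93681339, plus strand) reached 29.8, 38.8 and 35.9 FPKM in the control embryos and 32.4, 29.0 and 34.9 in the mutant embryos. For both genes mutant replicate 2 and control replicate 1 were the lowest samples and control replicate 2 the highest. The log2 fold changes were -0.10 for *Alx1* (standard error 0.13, 95% interval -0.40 to 0.20) and -0.11 for *Alx4* (standard error 0.12, 95% interval -0.39 to 0.17). The *Alx4* locus overlaps *Ext2* on the other strand, and *Prrx1*, *Alx1*, *Twist2* and *Tfap2a* overlap 1 to 3 annotated noncoding genes each. The libraries were stranded, but how reads were assigned where genes overlap is not given in the sources used here.

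*Twist1*, which is required in cranial neural crest and whose loss of a single copy causes early fusion of skull sutures, reached 76.8, 78.8 and 76.4 FPKM in the control embryos and 89.5, 65.5 and 79.2 in the mutant embryos (ENSMUSG00000035799, chromosome 12 at 33957671 to 33959829, plus strand). The controls lay within an SD of 1.26, and the mutants, with an SD of 12.01, spread to both sides of them. The log2 fold change was 0.0022 (standard error 0.12, 95% interval -0.27 to 0.28). *Twist2* (ENSMUSG00000007805, chromosome 1 at 91801461 to 91848028, plus strand), known from the dermis, reached 39.4, 49.4 and 39.7 FPKM in the control embryos and 46.2, 38.5 and 32.6 in the mutant embryos. The lowest value was that of mutant replicate 3, and mutant replicate 1 was above 2 of the 3 controls. Its log2 fold change was -0.13 (standard error 0.15, 95% interval -0.48 to 0.21), and in replicates 2 and 3 only it was -0.31 (unadjusted p = 0.0406, adjusted p = 0.436 from limma).

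*Tfap2a*, needed for neural crest and also expressed in surface ectoderm, reached 6.46, 6.44 and 6.04 FPKM in the control embryos and 6.33, 4.30 and 6.17 in the mutant embryos (ENSMUSG00000021359, chromosome 13 at 40715302 to 40738376, minus strand). The mutant mean was 88.7% of the control mean. Mutant replicate 2 was the lowest sample, and the other mutants lay within the range of the controls. The log2 fold change was -0.16 (standard error 0.14, 95% interval -0.48 to 0.16), and without mutant replicate 2 it was -0.013. *Tfap2a* was the only member that passed the filter of an FPKM over 5 through the control samples alone, and at its low level the scale understates differences.

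Of the 9 members, 0 had an adjusted p under 0.05 and 0 an unadjusted p under 0.05 in limma, where the smallest unadjusted p of a member was 0.267. Over all genes tested the adjusted threshold was passed by 0%. The unadjusted threshold was passed by 0.706% of genes with higher and 0.954% with lower values in mutants, 167 genes in all, and by 604 genes with the replicate number as a block. The groups did not overlap in 0 of the 9 members, against 2.63% of all genes tested that were higher and 2.37% that were lower in mutants. At 3 samples a group these values do not show that the levels were equal. The 95% intervals on the log2(FPKM + 1) scale reached down to falls of 14.4% for *Prrx2* and 28.4% for *Tfap2a*, and up to rises of 11.4% for *Tfap2a* and 28.8% for *Msx1*. Y-linked expression was high in mutant replicates 1 and 2 and near 0 in the other 4 samples. With it as a covariate, the genotype difference rested almost wholly on mutant replicate 3 against the controls. The widest fall and rise within the intervals of that fit were 43.2% and 61.6%.

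**Figure D2:**
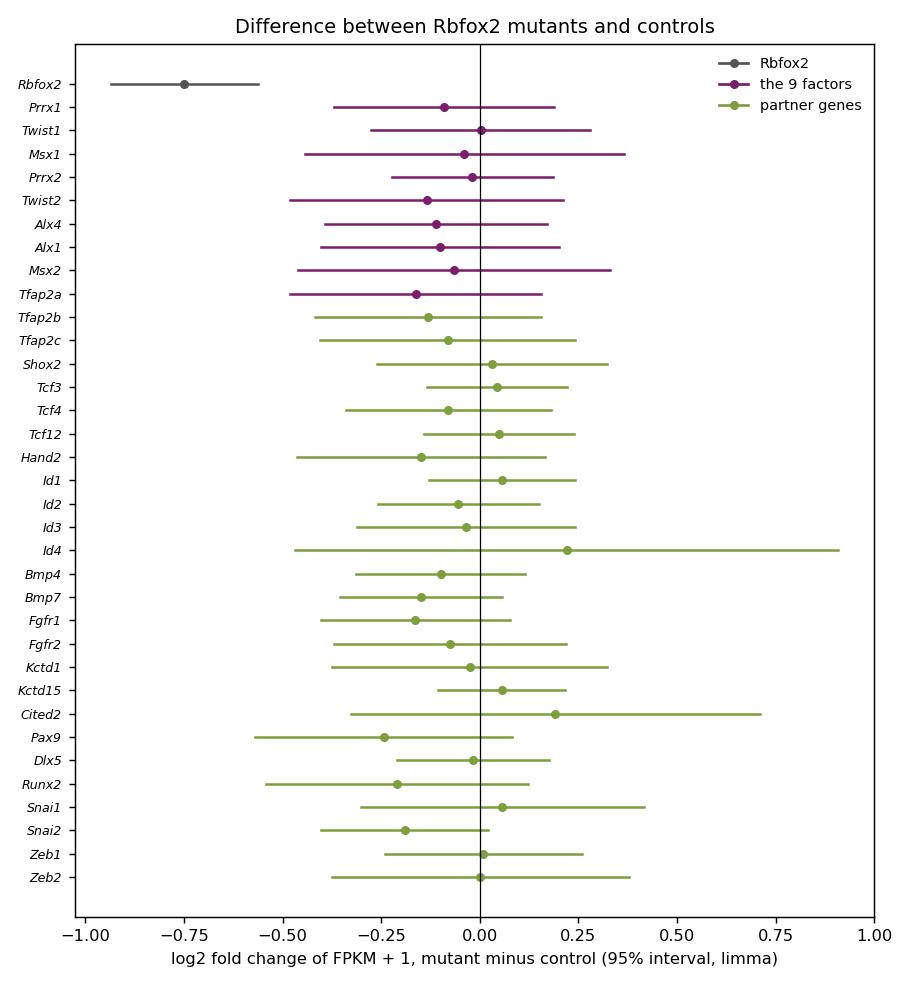
Log2 fold change of FPKM + 1 between mutants and controls (horizontal axis) for *Rbfox2*, the 9 factors and 25 of the 27 partner genes that were tested. Points are limma estimates and lines are 95% intervals. The interval of *Rbfox2* lies below 0, and those of all 9 factors and of the 25 partner genes drawn include 0.

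Although 8 of the 9 fitted differences were below 0, against 47.2% of those of all genes, this count changed when single embryos were left out. It was 5 of 9 without mutant replicate 2, against 52.2% of all genes in that fit. It was 9 of 9 without mutant replicate 1 (40.8% of all genes) or without mutant replicate 3 (56.5%). In both of these fits *Twist1*, the member nearest to 0, changed sign. With the Y-linked covariate the count was 4 of 9, against 40.0% of all genes. That fit in effect set mutant replicate 3 alone against the controls. Mutant replicate 2 was the lowest of the 6 samples for 7 members, while it was the lowest for 12.04% of all genes tested. Summed over the 9 genes, the FPKM was 413, 443 and 416 in control replicates 1, 2 and 3 and 453, 355 and 411 in mutant replicates 1, 2 and 3. The mutants thus held the highest and the lowest sum.

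Compared within replicate numbers, of which only the first was told apart by the data, the members did not move together by genotype. In replicate 1, the mutant was lower than the control for 2 of the 9 genes, *Msx2* and *Tfap2a*, against 54.6% of all genes tested. In replicate 2 it was lower for 9 of 9, with differences from -0.49 for *Tfap2a* to -0.032 for *Msx2*, against 48.4% of all genes. In replicate 3 it was lower for 5 of 9, against 44.3% of all genes. None of the 9 genes differed in the same direction in all 3 numbers, which 26.8% of all genes tested did. That count rests on how numbers 2 and 3 were matched, which the values do not settle. With numbers 2 and 3 exchanged, *Tfap2a*, and no other member, was lower in the mutant of every pair. Its mutant and control values were then 6.33 and 6.46, 6.17 and 6.44, and 4.30 and 6.04. The lack of a shared direction is therefore no result about genotype. The largest opposite values were those of *Prrx1*, at 0.24 in replicate 1 and -0.37 in replicate 2, and of *Twist2*, at 0.23 in replicate 1 and -0.35 in replicate 2.

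**Figure D3:**
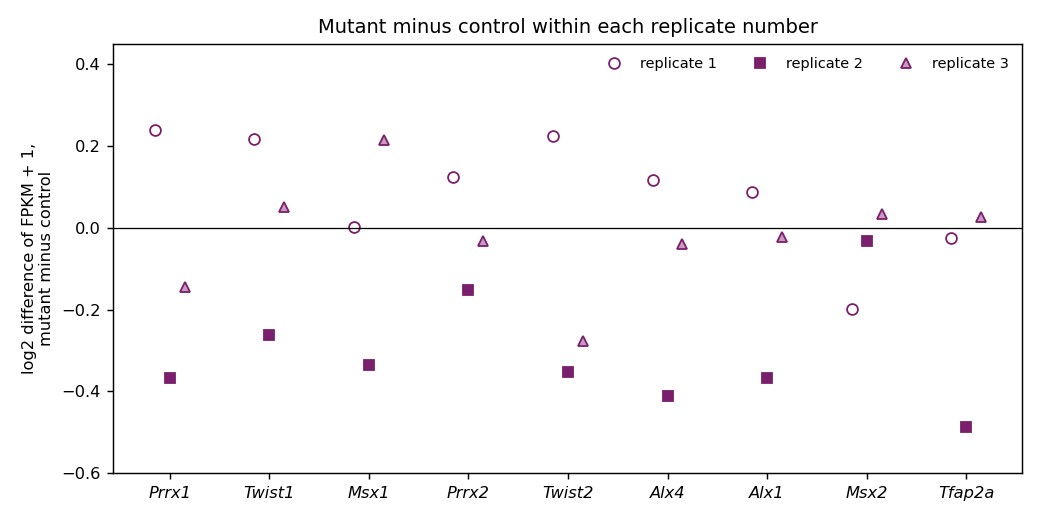
Log2 difference of FPKM + 1, mutant minus control (vertical axis), for each of the 9 genes within replicate 1 (open circles), 2 (filled squares) and 3 (triangles). All 9 squares lie below 0, while 7 of the 9 circles lie above it.

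Markers of the cranial mesenchyme and of other cells were set beside these values. The summed FPKM of 10 mesenchymal matrix and receptor genes, among them *Pdgfra* and *Col1a1*, was 1357 to 1965 in controls and 1343 to 1765 in mutants, and 9 of the 10 had a fitted difference below 0. The unadjusted threshold of 0.05 in limma was passed by 1 of the 10, *Col1a1*, which was lower (log2 fold change -0.42). Of all genes tested, 0.954% passed it with lower values in mutants. Among the mutants the mesenchymal sum was highest in replicate 2. The 10 neuronal markers, *Tubb3* among them, summed to 820 to 871 in controls and 952 to 1028 in mutants, without overlap. Of the 10, 1 had a fitted difference below 0. An unadjusted p under 0.05 in limma was found for 3, all higher, against 0.706% of all genes tested. The neuronal sum was highest in mutant replicate 2. The 10 epithelial markers summed to 144 to 259.9 in controls and 148 to 204 in mutants, and mutant replicate 2 had the highest sum of the mutants. Of the 9 epithelial markers that passed the filter, 8 had differences below 0 and 0 an unadjusted p under 0.05. Skeletal muscle markers summed to 197 to 562 in controls and 193 to 315 in mutants, and all 8 that passed the filter had differences below 0 (median -0.43), with 0 at an unadjusted p under 0.05. Forebrain progenitor markers (368 to 625 and 520 to 667), endothelial markers (116 to 137 and 121 to 134), erythroid markers (4618 to 9397 and 6278 to 9785), cartilage and bone markers (180 to 254 and 178 to 234) and choroid plexus markers (22.9 to 90.3 and 47.9 to 101) overlapped between controls and mutants. Mutant replicate 2 had the highest forebrain progenitor (667) and choroid plexus (101) sums of all samples. It did not have the highest endothelial, erythroid or cartilage and bone sum. Among markers that passed the filter, differences were below 0 for 1 of 10 forebrain progenitor and 2 of 8 endothelial markers. They were below 0 for 0 of 4 erythroid markers (median 0.41), 3 of 4 cartilage and bone markers and 1 of 3 choroid plexus markers. Of all genes tested, 47.2% were below 0. Control replicate 1 and mutant replicate 1 had lower mesenchymal, epithelial, skeletal muscle and endothelial sums than every other sample. This did not hold for the neuronal, forebrain progenitor, erythroid, cartilage and bone or choroid plexus sums. Of the 79 markers listed, *Hbb-bt* was not among the rows, and no other was at 0 in all samples. The part of tissue composition in the members' values was not tested.

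*Alx1* and *Alx4* kept nearly the same balance in every embryo, while their levels varied more. The ratio of *Alx1* to *Alx4* was 0.968, 0.962 and 1.01 in control replicates 1, 2 and 3 and 0.948, 0.991 and 1.03 in mutant replicates 1, 2 and 3. Over all 36 pairs of members, their profiles across the 6 samples were the closest, with a root mean square gap of 0.041 on the log2 scale after each gene was centred on its own mean. *Msx1* was 4.33 to 5.43 times as high as *Msx2*, and *Prrx1* was 1.65 to 2.05 times as high as *Prrx2*. The *Twist1* to *Twist2* ratio ran from 1.59 in control replicate 2 to 2.43 in mutant replicate 3.

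Mutants and controls overlapped in each of the 4 ratios. For the log2 ratios of FPKM + 1, the mutant mean minus the control mean was 0.026 for *Msx1*/*Msx2*, -0.071 for *Prrx1*/*Prrx2*, 0.011 for *Alx1*/*Alx4* and 0.14 for *Twist1*/*Twist2*. The exact two-sided permutation p-values were 0.90, 0.60, 0.90 and 0.50 and each was 0.90 after Benjamini-Hochberg adjustment over the 4 pairs, where 3 samples against 3 cannot go below 0.10. The *Twist1*/*Twist2* difference moved with single embryos of both groups, to 0.00031 without mutant replicate 3, 0.046 without control replicate 2 and 0.25 without mutant replicate 2.

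**Figure D4:**
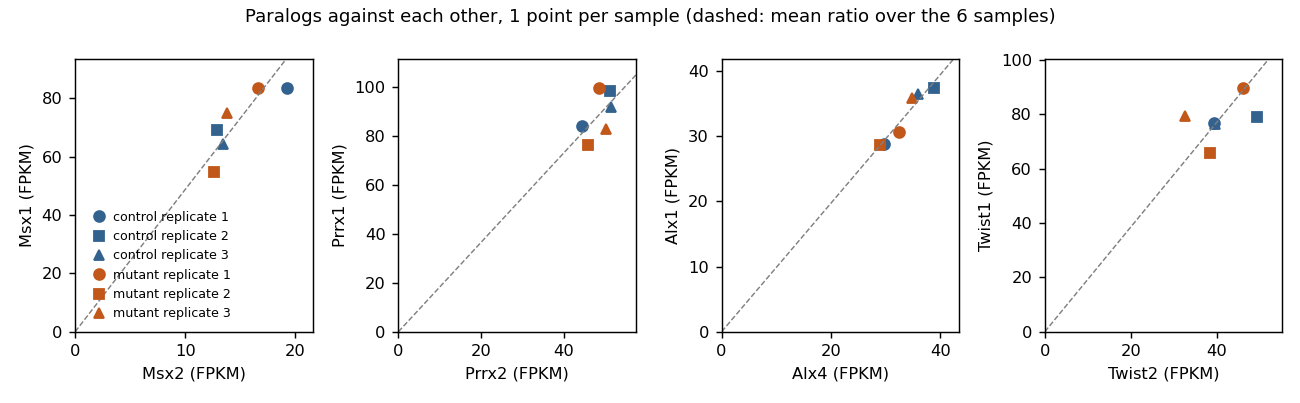
FPKM of *Msx1*, *Prrx1*, *Alx1* and *Twist1* (vertical axes) against that of their paralogs *Msx2*, *Prrx2*, *Alx4* and *Twist2* (horizontal axes), 1 point per sample, with controls in blue, mutants in orange and the replicate number as shape. The dashed line is the mean ratio over the 6 samples, and the *Alx1* and *Alx4* points lie closest to it, at ratios of 0.948 to 1.03.

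Genes of the same families, their partners and their signals were read from the same fit. The list held 32 genes, of which 27 passed the FPKM filter, and 0 of the 27 had an unadjusted p under 0.05 in limma or groups that did not overlap. Their median log2 fold change was -0.035, and 16 of 27 were below 0. With the replicate block, *Bmp7* (-0.15, unadjusted p = 0.0480) and *Fgfr1* (-0.16, unadjusted p = 0.0345) passed the unadjusted threshold in limma, both lower. Of all genes tested, 6% passed it in either direction. With a term for the first replicates, *Snai2* passed as well, giving 3 of 27, all lower, against 6.07% of all genes in either direction. Without control replicate 1 the count was 2 higher (*Id4* and *Cited2*) and 2 lower, against 6.45% of all genes in either direction. Without mutant replicate 1 it was 4, all lower, against 4.1% of all genes in either direction. In replicates 2 and 3 only it was 9 of 27, with 2 higher (*Id4* and *Cited2*) and 7 lower, against 11% of all genes in either direction. No set test was run on the list.

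Of the AP-2 genes, *Tfap2b* had 13.1 ± 0.817 FPKM in control and 11.97 ± 2.02 in mutant embryos, and *Tfap2c* at 9.78 ± 1.45 and 9.18 ± 1.35, so both had higher FPKM than *Tfap2a* in every sample. *Shox2*, a palate homeodomain gene, was at 19.2 ± 1.57 and 19.7 ± 3.01. *Msx3*, *Tfap2d* and *Tfap2e* did not pass the filter, and none of them reached an FPKM of 2 in any sample.

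Twist proteins form dimers with E proteins and with Hand proteins. The E protein gene *Tcf3* had 147 ± 5.14 FPKM in control and 152 ± 4.01 in mutant embryos, above *Twist1* in every sample. The others followed, with *Tcf12* at 93.7 ± 5.29 and 96.9 ± 4.30, and *Tcf4* at 74.6 ± 9.30 and 70.3 ± 4.56. *Hand2* was at 14.3 ± 2.50 and 12.7 ± 1.27, and *Hand1* did not pass the filter. The Id genes encode inhibitors that bind E proteins without binding DNA. The 4 of them had log2 fold changes from -0.055 for *Id2* to 0.22 for *Id4*, the latter with a standard error of 0.29 and a control range of 33.6 to 83.7.

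The 4 signalling genes that passed the filter, *Bmp4*, *Bmp7*, *Fgfr1* and *Fgfr2*, all had fitted differences below 0, from -0.16 for *Fgfr1* to -0.076 for *Fgfr2*, and none passed the test. *Bmp4*, a ligand upstream of Msx genes, had 21.1 ± 1.54 FPKM in control and 19.6 ± 1.54 in mutant embryos, and *Bmp2* did not pass the filter. *Kctd15*, an inhibitor of AP-2α, was at 41.9 ± 1.11 and 43.6 ± 1.14. *Kctd1* and the AP-2 coactivator gene *Cited2* had log2 fold changes of -0.026 and 0.19.

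Among 8 other factors of the facial mesenchyme, *Pax9*, which acts with *Msx1* in tooth and palate, reached 9.95, 10.1 and 9.43 FPKM in the control embryos and 10.2, 6.73 and 7.80 in the mutant embryos. Mutant replicate 1 was above every control, and the other 2 mutants were below every control. Its log2 fold change of -0.24 (standard error 0.14) was the largest fall of the list and did not pass the test (unadjusted p = 0.120, adjusted p = 1.0 from limma). Without mutant replicate 1 it was -0.39 (unadjusted p = 0.00666, adjusted p = 0.907) and without mutant replicate 2 it was -0.12 (unadjusted p = 0.376), both from limma. *Snai2*, a zinc-finger factor of migrating crest, had the smallest unadjusted p, 0.0713 (log2 fold change -0.19, standard error 0.090), and it was at -0.25 (unadjusted p = 0.0277, adjusted p = 0.907 from limma) without mutant replicate 1 and at -0.12 without mutant replicate 2. The bone factor *Runx2* had a log2 fold change of -0.21, while *Dlx5*, *Zeb1*, *Zeb2* and *Snai1* lay between -0.016 and 0.057.

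The genes whose profiles over the 6 samples lay nearest to the mean profile of the 9 members, by the same root mean square gap, were *Fam102a* (0.026), *Wwp1* (0.028), *Rassf3* (0.031), *Slc35e2* (0.035) and *Nfatc4* (0.037). Each of them was lowest in mutant replicate 2, as was the mean profile that they were picked to match. For single members the nearest genes included *Lrdd* for *Msx2* (0.018), *Rbms1* for *Prrx1* (0.027), *Nfatc1* for *Twist2* (0.022), *Dusp7* for *Twist1* (0.029), *Eya4* for *Alx4* (0.030) and *Aff2* for *Alx1* (0.031). *Zmym6* for *Tfap2a* (0.049) and *mt-Atp8* for *Msx1* (0.061) were less near. The measure describes likeness over 6 libraries, which share the split of the first replicates, and favours genes of a similar spread.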

How the data were processed

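Craniofacial RNA of 3 control and 3 *Rbfox2* mutant embryos at E12.5 was sequenced from stranded poly(A) libraries, and the authors aligned the reads with STAR to GRCm38. The submitters' processing notes also name FastQC 0.11.4 and Cuffdiff. The tool that made the gene table and its annotation release are not given in the sources used here. The authors deposited FPKM for 38553 genes, without pooling replicates. FPKM corrects for gene length and mapped fragments but drops the read count. The table of all samples and the 6 single tables held the same values (0 differences), and samples were grouped by their titles.

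The 10061 genes whose values exceeded an FPKM of 5 throughout the controls or throughout the mutants were compared as log2(FPKM + 1) with limma 3.58.1 in R 4.3.3, with intensity trend, no covariate and Benjamini-Hochberg adjustment. The procedure was tested on simulated data. Paralog ratios were compared by exact permutation tests. The members, the 32 partner genes and the 9 marker lists (79 entries) were chosen with earlier results of these data known. The named genes are the members, *Rbfox2*, *Pax3*, the partner genes, and the genes nearest in profile. The values of 3 of them are not reported here. Coordinates and mRNAs are from GENCODE M21.

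Samples with the same replicate number deviated together from their group means (correlations across genes of 0.64, 0.26 and 0.51 for numbers 1, 2 and 3), and the pairing comes from these values alone, since the labels tie no litter to a number. Control 3 with mutant 2 (0.40) and control 2 with mutant 3 (0.23) also correlated, so the values set the first replicates apart but do not tell numbers 2 and 3 from each other. Alternatives were pseudocounts of 0.1 and 5, median ratio scaling, quantile normalization, an FPKM filter of 1, no filter, the replicate block, limma without trend, a covariate of mean Y-linked expression (*Uty*, *Kdm5d*, *Ddx3y*, *Eif2s3y*), a term for the first replicates, replicates 2 and 3 only, and each sample left out.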

Additional observations from a re-analysis of the deposited data

How the results depend on the processing

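Under 17 alternatives no member reached an adjusted p under 0.05, and the smallest was 0.398. In 5 of them the members' estimates are the same by construction and only the p-values differ. Of the 108 member values in the other 12, 18 changed sign, with values of up to 0.14 in size. With the Y-linked covariate, *Msx1*, *Prrx2*, *Alx1* and *Alx4* moved to 0.055, 0.036, 0.076 and 0.0082, and *Twist2* to -0.38. These values rest almost wholly on mutant replicate 3 against the controls. In replicates 2 and 3 only, *Msx2* was 0.00080 and *Twist1* -0.11, and 2 members, *Prrx1* and *Twist2*, had an unadjusted p under 0.05. With median ratio scaling, which moved the median of all genes from 0.0057 to 0.0012, *Twist1* was -0.0025. Leaving out each sample in turn gave -0.17 to 0.14 for *Msx1*, -0.17 to 0.11 for *Msx2*, -0.087 to 0.015 for *Prrx2* and -0.10 to 0.12 for *Twist1*. Without a change of sign, it gave -0.20 to -0.0067 for *Prrx1*, -0.22 to -0.033 for *Alx1*, -0.22 to -0.031 for *Alx4*, -0.26 to -0.014 for *Twist2* and -0.25 to -0.013 for *Tfap2a*. The ratio differences ran from -0.045 to 0.12 for *Msx1*/*Msx2*, from -0.17 to -0.019 for *Prrx1*/*Prrx2* and from -0.017 to 0.040 for *Alx1*/*Alx4*.

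*Rbfox2* stayed lower throughout, and passed the adjusted threshold with the term for the first replicates (-0.75) and in replicates 2 and 3 only (-0.82). The number of genes with an adjusted p under 0.05 was 3 and 4 in those fits and 0 to 1 with a sample left out, the 1 being without mutant replicate 3. The number with an unadjusted p under 0.05 was 604 with the replicate block, 304 with an FPKM filter of 1, 663 with no filter, 611 with the term for the first replicates and 1103 in replicates 2 and 3 only. It ranged from 78 without control replicate 2 to 649 without control replicate 1, with 413 without mutant replicate 1 and 108 without mutant replicate 2. The cause of these shifts was not tested, other than that weaker filters test more genes. The replicate block changed no call of a member. With 3 samples a group no ratio could reach a p under 0.05, with or without the block, so the ratios could show no change. Since read counts are not known from FPKM, the precision rests on the 3 embryos of each group.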
